A study of Danio rerio with 40 samples.

Results

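Among 32520 zebrafish genes counted in whole larvae, 44 were nearly absent in one genotype and counted in every pool of the other. Levels are given as CPM, the counts of a gene per 1000000 counts of its library, with no correction for gene length. Members were chosen by these levels and by name. A gene was included when its mean was under 0.1 CPM in one genotype and at least 0.5 CPM in the other, with every pool of the other genotype at 0.2 CPM or more. Names starting with mhc, the class of antigen-presenting genes, were left out. By this rule 35 genes were nearly absent in the quadruple knockout and 9 were nearly absent in the control.

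The larvae (Danio rerio) were 5 days post fertilization (dpf) and had been raised at 27°C. The first group, called qKO, carried smad3a-/-;smad3b-/-;smad6a-/-;smad6b-/- and was sampled as 5 pools of 5 whole fish. The second group, called control, was wild type, consisted of cousins of the mutants, and was also sampled as 5 pools of 5 whole fish. Genotype and family therefore cannot be told apart in these pools, and whole-body RNA does not separate fewer cells of a type from less RNA per cell. Another 30 samples of the series, from 6 further groups, were not analysed here.

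Smad3 carries the signal of TGF-beta and activin receptors into the nucleus, and Smad6 is an inhibitor that acts mainly on the bone morphogenetic protein branch of the same superfamily. Many fish genes lie in runs of similar copies, and chemokines, glucuronosyltransferases, Kazal-type protease inhibitors, zinc finger genes and NOD-like receptors are known for such runs. A read from one copy can match its relatives, and how reads matching several places were counted is not given in the sources used here, so the split of counts between close copies is uncertain. Counts alone also cannot tell a missing gene from a gene that is present but silent.

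Library totals ran from 20752303 to 191289475 counts in qKO and from 16062147 to 110409906 counts in control. In the smallest library 0.2 CPM stood for 3.21 counts. All 31 marker genes listed for larval tissues were found, and 28 reached 1 CPM in every pool, while the germ cell markers ddx4 and piwil1 and the lymphocyte marker lck did not. In both genotypes pools 1 and 2 stood apart from pools 3 to 5. The clock gene nr1d1 had 335 and 341 CPM in qKO pools 1 and 2 against 1.73 to 2.72 CPM in qKO pools 3 to 5, and in control 8.64 to 9.03 CPM against 38.0 to 46.4 CPM. The counts of members and of called neighbours and relatives are therefore also given for each set of pools, while the shares by distance, the directions relative to members and the tallies of single families rest on all pools.

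The 4 targeted genes were still counted in qKO. Mean smad3a was 11.3 ± 1.33 CPM in qKO and 40.2 ± 5.12 CPM in control, and mean smad3b was 6.70 ± 0.442 CPM in qKO and 13.5 ± 0.887 CPM in control (SD, n = 5 each). Mean smad6a was 41.6 ± 4.43 CPM in qKO and 30.5 ± 2.63 CPM in control, and mean smad6b was 41.0 ± 3.15 CPM in qKO and 25.1 ± 1.60 CPM in control. With edgeR's quasi-likelihood test and Benjamini-Hochberg adjustment, smad3a fell by 1.9 (adjusted p = 4.17e-07) and smad3b by 1.09 (adjusted p = 5.11e-06) on the log2 scale, while smad6a rose by 0.36 (adjusted p = 0.0049) and smad6b by 0.62 (adjusted p = 7.2e-05). That test called a gene at an adjusted p under 0.05, and it called 5910 of 22894 tested genes, 25.8%, with 13.4% higher and 12.5% lower in qKO. No member lay within 100 entries of any of the 4 targeted genes in the deposited table. Of its adjacent entries that were matched to the RefSeq gene table, 99.37% shared a chromosome. Distances here are in entries, not in bases. Among the 22 members matched to the RefSeq gene table, 1 lay on the chromosome of smad3a and smad6a. Linkage to the targeted genes was not tested. The nearest member to smad6a was CU570782.1, 213 entries away, and the nearest to smad3b was itgam, 658 entries away.

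**Figure D1:**
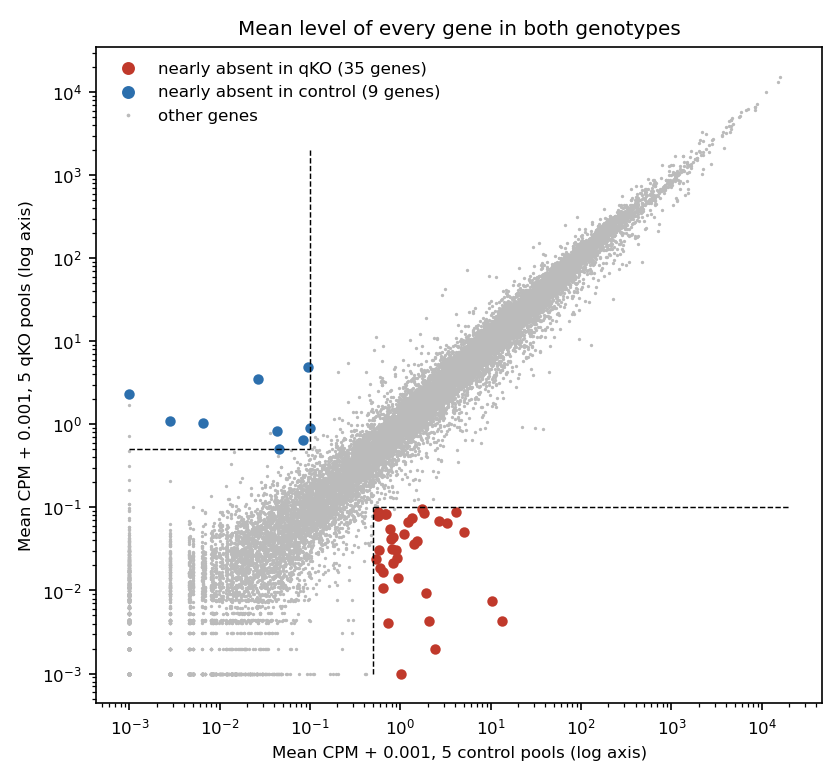
Mean CPM in the 5 qKO pools (vertical, log axis) against mean CPM in the 5 control pools (horizontal, log axis) for every gene, with 0.001 added so that zeros can be drawn. The 9 genes nearly absent in control stand at the upper left and the 35 nearly absent in qKO at the lower right, and dashed lines mark the thresholds of 0.1 and 0.5 CPM.

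The values that chose the members describe them and were not tested. Of the 35 genes nearly absent in qKO, 1 had no count in any qKO pool and 6 had at most 3 counts over all 5 pools. Of the 9 nearly absent in control, 1 had no count in any control pool and 3 had at most 3 counts. Other members were far less clear. The pooled level was 4.52-fold higher in qKO for si:ch211-51i16.3, which had 30 counts in control, and 6.85-fold higher in control for ankrd31. In control pool 1, si:dkey-146c18.2 rested on 4 counts. All 44 passed the filter on low counts, and the pools of the genotypes did not overlap for any of them. Among all 22894 genes tested, pools did not overlap for 20.4%, but the rule makes the members' own count uninformative. The rule was met by 0.108% of genes in the direction of absence in qKO and by 0.0277% in the direction of absence in control. With pools 1 and 2 alone 42 genes met it for qKO and 20 for control, and with pools 3 to 5 alone 53 for qKO and 13 for control. These sets did not hold all of the members. In qKO pools 1 and 2, cbln8 had 0.120 and 0.170 CPM and spink2.5 had 0.120 and 0.305 CPM, above the limit of 0.1 CPM.

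Members just inside the rule for absence in qKO were spink2.5 at a qKO mean of 0.0948 CPM, ankrd31 at 0.0881 CPM and cbln8 at 0.0876 CPM, and just outside lay ccl34b.4 at 0.104 CPM, si:ch211-12p12.2 at 0.107 CPM and BX323560.1 at 0.116 CPM. For the level in control, CU682640.1 at 0.536 CPM, ankrd31 at 0.561 CPM and one MFAP4 entry at 0.567 CPM were just inside, and BX005011.1 at 0.477 CPM, si:dkey-28d5.5 at 0.475 CPM and BX321870.2 at 0.452 CPM were just outside. For absence in control, znf1001 at a control mean of 0.0992 CPM, RNPS1 at 0.0931 CPM and si:ch211-51i16.3 at 0.0834 CPM were inside, and a clone-named gene at 0.111 CPM, BX005396.2 at 0.117 CPM and FO904870.1 at 0.140 CPM were outside. For the level in qKO, si:dkeyp-75b4.9 at 0.511 CPM was just inside and BX004785.1 at 0.486 CPM just outside. On the minimum per pool, jac9 was left out with its lowest control pool at 0.0206 CPM, while BX571954.2, with its lowest control pool at 0.244 CPM, was kept.

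**Figure D2:**
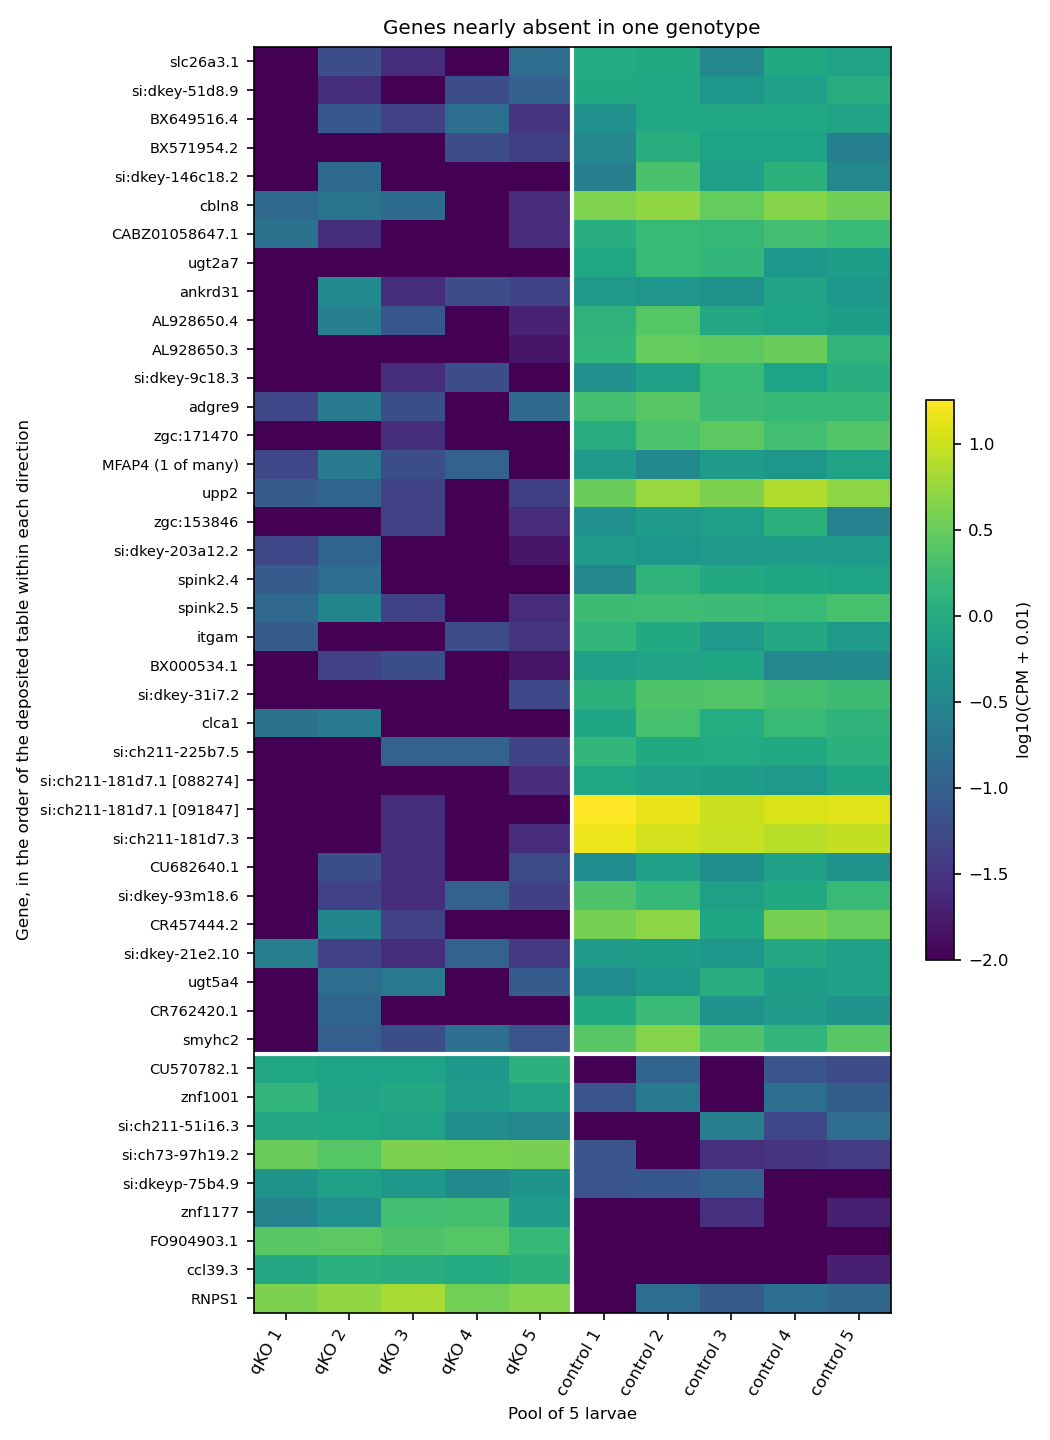
CPM of the 44 members in each of the 10 pools, with the 5 qKO pools left of the 5 control pools and colour on a log scale. The 35 genes nearly absent in qKO and the 9 nearly absent in control form blocks of opposite pattern, and in control the highest CPM is reached by si:ch211-181d7.3, by one of the entries named si:ch211-181d7.1 and by upp2.

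The clearest absence in qKO was a run of neighbouring genes that include an innate immune receptor. The gene named si:ch211-181d7.1 in 2 entries of the table lay beside si:ch211-181d7.3, which the gene name reference calls nlrc11, a member of the NOD-like receptor family of cytosolic sensors. The more counted si:ch211-181d7.1 entry (ENSDARG00000091847) had 0, 0, 0.0167, 0 and 0 CPM in qKO pools 1 to 5, against 18.1, 14.3, 10.0, 11.9 and 12.8 CPM in control pools 1 to 5. A single count in qKO pool 3 was the whole of its qKO signal, and every control pool was at 10.0 CPM or above. Its pooled level was 4469-fold higher in control, with a 95% exact Poisson interval of 802-fold to 176515-fold that covers only the counting error of the qKO count.

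Beside it, si:ch211-181d7.3 had 0, 0, 0.0167, 0 and 0.0157 CPM in the qKO pools and 14.9, 10.7, 9.23, 8.16 and 9.08 CPM in the control pools. Its 4 counts in qKO made the pooled level 844-fold higher in control (interval 330-fold to 3099-fold). The other si:ch211-181d7.1 entry (ENSDARG00000088274) averaged 0.0031 ± 0.0070 CPM in qKO and 0.726 ± 0.119 CPM in control. Control pool 1 was the highest for all 3 genes.

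The genes on either side of the run were well counted in both genotypes. Before it in the table, grik1b, which encodes a kainate-type glutamate receptor subunit, averaged 15.6 ± 2.96 CPM in qKO and 11.1 ± 1.66 CPM in control. Its rise of 0.39 on the log2 scale (edgeR adjusted p = 0.032) was lost when any of qKO pools 3, 4 and 5 or control pools 1, 3 and 5 was left out. One entry further, zgc:110333, a claudin (cldn8.2 in the reference), averaged 20.2 ± 2.12 CPM in qKO and 31.6 ± 1.62 CPM in control and fell by 0.74 (edgeR adjusted p = 0.000181). On the other side slc8a2b, a sodium-calcium exchanger gene, did not pass the test.

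A metabolic enzyme and a muscle myosin were also nearly absent in qKO. For upp2, uridine phosphorylase, which cleaves uridine to uracil and ribose phosphate, the qKO pools had 0.0797, 0.102, 0.0333, 0 and 0.0314 CPM and the control pools 3.30, 5.62, 4.16, 7.31 and 4.98 CPM. The lowest control pool was far above the highest qKO pool, but the rule had chosen upp2 by these levels. The pooled level was 116-fold higher in control (interval 71.4-fold to 203-fold). Its neighbours crfb4 and si:ch211-261p9.4 did not pass the test. The paralog upp1, which lies elsewhere, averaged 2.70 ± 0.480 CPM in qKO and 2.85 ± 0.861 CPM in control (edgeR log2 fold change -0.12, SE 0.20, adjusted p = 0.687).

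Slow myosin heavy chain, the motor protein of slow-twitch muscle, has 2 entries named smyhc2. The member (ENSDARG00000111606) had 0, 0.0848, 0.05, 0.145 and 0.0627 CPM in the qKO pools and 2.55, 4.55, 2.25, 1.38 and 2.60 CPM in the control pools. The other smyhc2 entry, far away in the table, averaged 190 ± 18.9 CPM in qKO and 185 ± 21.2 CPM in control (edgeR log2 fold change -0.04, SE 0.08, adjusted p = 0.749). Summed, the 2 entries gave 190 ± 18.9 CPM in qKO and 188 ± 21.8 CPM in control, so the member's absence was not visible in the total. Its relatives smyhc1 and smyhc3 did not pass the test either (adjusted p = 0.143 and 0.548).

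Cerebellins are secreted proteins with a C1q domain, best known in mammals as organisers of synapses. The member cbln8 had 0.120, 0.170, 0.133, 0 and 0.0157 CPM in the qKO pools and 4.23, 5.2, 3.03, 4.65 and 3.52 CPM in the control pools. The control pools all exceeded 3 CPM, while no qKO pool reached 0.2 CPM, but the rule had chosen cbln8 by these levels. Its pooled level was 57.3-fold higher in control (interval 38.5-fold to 89.5-fold). Of its 14 tested relatives by name, 7 fell, none rose and 7 did not pass, beside 12.5% of all tested genes called lower. The relatives that fell included cbln9, at 1.02 ± 0.283 CPM in qKO and 5.24 ± 1.22 CPM in control (edgeR log2 fold change -2.49, SE 0.24, adjusted p = 2.77e-05), and cbln5, at 0.417 ± 0.137 CPM in qKO and 1.9 ± 0.565 CPM in control (-2.39, SE 0.28, adjusted p = 0.000112). Both lie far from cbln8 in the table, in a run of cerebellin genes. The cerebellins cbln1, at 41.1 ± 2.66 CPM in qKO and 38.5 ± 3.47 CPM in control, and cbln2b, at 26.9 ± 1.89 CPM in qKO and 25.7 ± 2.94 CPM in control, gave log2 fold changes of 0.01 and -0.02 (adjusted p = 0.939 and 0.889). The immediate neighbours of cbln8 that were tested, si:ch211-142d6.2, arhgef40 and znf219, did not pass.

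Kazal-type inhibitors block serine proteases such as trypsin. There were 3 spink2 genes among the members, counting si:dkey-203a12.2, which the reference names spink2.7. The qKO pools had 0.120, 0.305, 0.0333, 0 and 0.0157 CPM of spink2.5, and the control pools 1.68, 1.77, 1.72, 1.57 and 2.02 CPM. The control pools were tight, with a coefficient of variation of 9.61%, while qKO pool 2 was the highest of its group. For spink2.4 the qKO pools had 0.0797, 0.136, 0, 0 and 0 CPM and the control pools 0.311, 1.32, 0.942, 0.803 and 0.770 CPM, with control pool 1 the lowest. The gene si:dkey-203a12.2 averaged 0.0294 ± 0.0437 CPM in qKO and 0.581 ± 0.0434 CPM in control, the lowest control variation of any member at 7.47%.

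Other genes of this run were lower in qKO without meeting the rule. One such gene, si:dkey-203a12.7, spink2.9 in the reference, lay between spink2.4 and spink2.5 and had 0.120, 0.356, 0, 0.0482 and 0.0784 CPM in the qKO pools, against 1.31, 1.63, 1.48, 1.05 and 1.62 CPM in the control pools (edgeR log2 fold change -3.60, SE 0.54, adjusted p = 0.000665). Next to si:dkey-203a12.2, spink2.2 averaged 0.163 ± 0.208 CPM in qKO and 1.49 ± 0.494 CPM in control (-3.37, SE 0.70, adjusted p = 0.00527). Without qKO pool 2 these became -4.60 and -4.61. For si:dkey-203a12.9, spink2.6 in the reference, the values were 3.24 ± 2.37 CPM in qKO and 5.04 ± 1.32 CPM in control, and it did not pass (adjusted p = 0.284). The falls of spink2.1 by 0.88 (adjusted p = 0.0459) and of spink4 by 0.89 (adjusted p = 0.0438) were both lost when any of qKO pools 1, 3, 4 and 5 or control pools 3, 4 and 5 was left out, and with pools 1 and 2 alone the log2 fold changes were 0.09 and -0.03.

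Some pancreatic and intestinal markers were also lower in qKO, but some markers of other tissues had lower means there too. The liver marker fabp10a averaged 83.7 CPM in qKO and 313 CPM in control, and the photoreceptor marker rho 1351 CPM and 2762 CPM. Others did not, such as the swim bladder marker sftpba, at 6.34 CPM in qKO and 2.42 CPM in control. By the edgeR test, of the 2 exocrine pancreas markers, prss1 (trypsin) fell and ela2 (elastase) did not pass, and their summed level ranged from 365 to 1701 CPM in qKO and from 1639 to 2184 CPM in control. Of the 2 intestinal markers, fabp2 and apoa4b.1, both fell, with summed levels of 548 to 821 CPM in qKO and 860 to 1048 CPM in control. qKO pool 2 was the highest qKO pool for both sums, but apoa4b.1 alone was highest in qKO pool 5, and qKO pool 1 was second for the pancreatic sum and lowest for the intestinal sum. Neither sum came near 0 in any qKO pool, and their part in the absences was not tested.

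Several members encode proteins of epithelial transport and detoxification. The anion exchanger slc26a3.1, whose human counterpart exchanges chloride for bicarbonate in the gut, had 0, 0.0509, 0.0167, 0 and 0.136 CPM in the qKO pools, against 0.996, 0.937, 0.314, 0.947 and 0.743 CPM in the control pools. Its neighbour slc26a3.2 had 16.5, 28.6, 8.72, 7.90 and 14.96 CPM in qKO and 24.5 to 28.9 CPM in control and did not pass the test (edgeR log2 fold change -0.88, SE 0.33, adjusted p = 0.0773). The glucuronosyltransferase entry ugt2a7 (ENSDARG00000110614), of a class that attaches glucuronic acid to drugs and steroids, had no count in any qKO pool and 0.872, 1.60, 1.42, 0.535 and 0.634 CPM in the control pools. Against a floor of 3 counts over the 5 qKO pools it was at least 107-fold higher in control.

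Other ugt2a7 entries were counted in both genotypes. The entry just before the member averaged 7.34 ± 0.721 CPM in qKO and 7.06 ± 1.49 CPM in control (edgeR log2 fold change -0.01, SE 0.13, adjusted p = 0.965), and an entry 3 places after it averaged 4.04 ± 0.840 CPM in qKO and 6.08 ± 0.716 CPM in control (-0.65, SE 0.16, adjusted p = 0.0092). Between them zgc:172315, ugt2b5 in the reference, had 0.525 ± 0.189 CPM in qKO and 2.55 ± 0.564 CPM in control and fell by 2.32 (SE 0.25, adjusted p = 7.19e-05). The second glucuronosyltransferase member, ugt5a4, averaged 0.0828 ± 0.0870 CPM in qKO and 0.666 ± 0.262 CPM in control, and CU469568.2, 2 entries away, had 0.193 to 0.237 CPM in qKO and 1.1 to 1.63 CPM in control (-2.71, SE 0.21, adjusted p = 4.8e-06).

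Chloride channel accessory proteins of the CLCA family are secreted by epithelia in mammals. The member, named clca1 in the table and clca5.2 in the reference (ENSDARG00000100941), had 0.160, 0.203, 0, 0 and 0 CPM in the qKO pools and 0.809, 2.05, 1.02, 1.54 and 1.3 CPM in the control pools. The other clca1 entry, 2 places away, had 0.120, 2.00, 0.350, 0.241 and 0.277 CPM in qKO against 8.40, 9.65, 5.26, 8.44 and 6.98 CPM in control. It fell by 3.63 (SE 0.61, edgeR adjusted p = 0.00241), and by 4.92 without qKO pool 2, which stood far above the other qKO pools. In pools 1 and 2 alone the log2 fold change was -2.77 and did not pass (adjusted p = 0.212). Cystatins inhibit cysteine proteases. Beside the member CABZ01058647.1, at 0.0384 ± 0.0682 CPM in qKO and 1.52 ± 0.283 CPM in control, cst14b.2 had 0.275 ± 0.111 CPM in qKO and 1.74 ± 0.632 CPM in control and fell by 2.73 (SE 0.32, edgeR adjusted p = 0.000102). On the other side of the member, cst14b.1 averaged 16.9 ± 2.17 CPM in qKO and 13.2 ± 0.892 CPM in control and did not pass (log2 fold change 0.26, adjusted p = 0.0723), nor did CABZ01058650.1 (-0.15, adjusted p = 0.319).

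**Figure D3:**
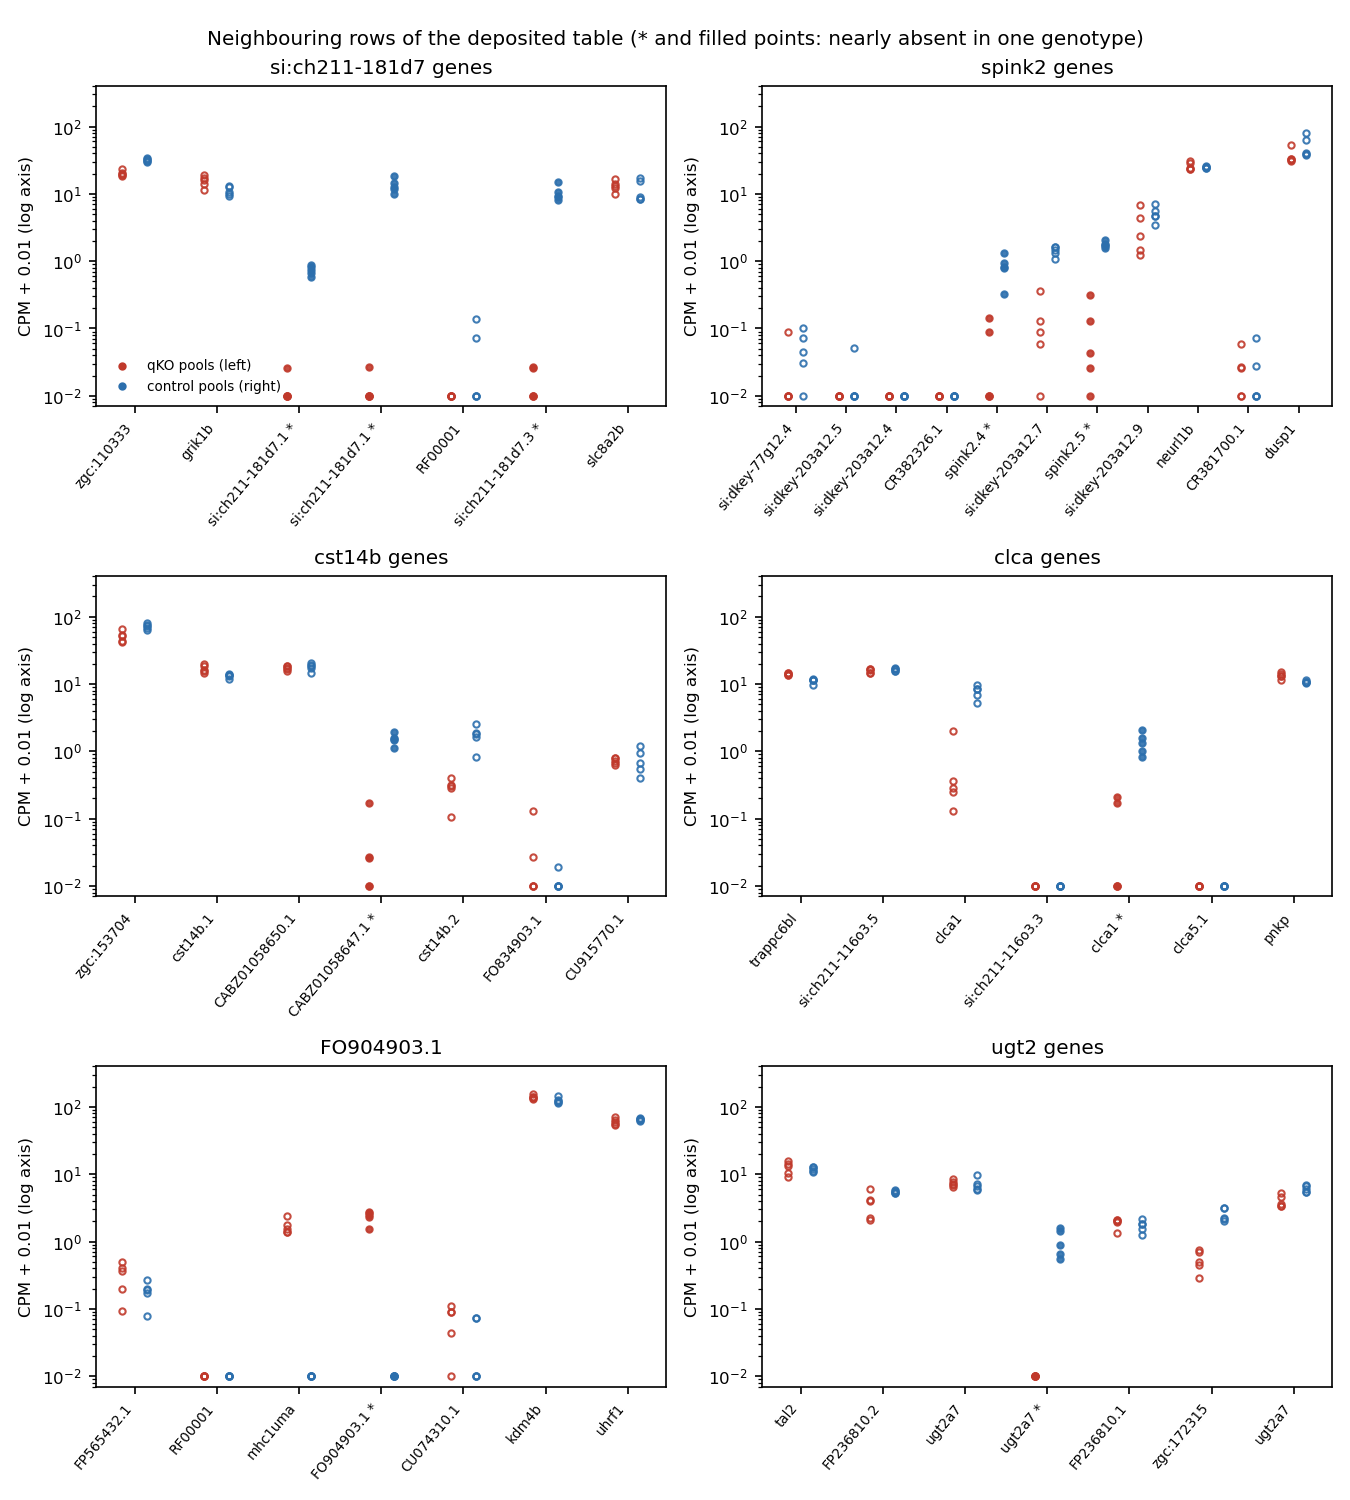
CPM plus 0.01 (log axis) of every pool for members, marked with a star and filled points, and for the genes in neighbouring entries of the deposited table, in table order, with the 5 qKO pools left of the 5 control pools. In each panel members near 0 in one genotype stand near genes counted in both, and in the spink2, cst14b, clca and ugt2 panels beside further genes that were lower in qKO.

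Leukocyte and surface receptor genes were also among those nearly absent in qKO. Integrin alpha M forms complement receptor 3 on myeloid cells in mammals. The member itgam, itgam.2 in the reference, had 0.0797, 0, 0, 0.0482 and 0.0209 CPM in the qKO pools against 1.43, 0.937, 0.573, 0.906 and 0.589 CPM in the control pools. The adjacent gene si:dkey-32n7.4, itgam.1 in the reference and the more counted of the pair, moved the other way. It had 9.93, 6.83, 7.24, 5.98 and 6.59 CPM in qKO against 2.12, 3.54, 2.05, 2.86 and 2.69 CPM in control, a rise of 1.38 (SE 0.17, edgeR adjusted p = 0.000192). Every qKO pool of itgam.1 was above every control pool, while itgam was chosen by the rule for the reverse. Pools did not overlap for 20.4% of all tested genes. The macrophage marker mpeg1.1 fell, at 5.45 to 6.97 CPM in qKO and 8.34 to 10.9 CPM in control, and the neutrophil marker mpx, at 10.2 to 18.8 CPM in qKO and 14.3 to 19.0 CPM in control, did not pass the test. The lymphocyte markers rag1 and lck had lower means in qKO. For rag1 they were 3.25 CPM in qKO and 9.56 CPM in control, and for lck 0.512 CPM and 1.42 CPM. The part of these marker levels in the absences was not tested.

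The adhesion receptor gene adgre9, of the family whose mammalian members mark myeloid cells, had 0.0399, 0.203, 0.05, 0 and 0.126 CPM in the qKO pools and 1.93, 2.57, 1.64, 1.5 and 1.49 CPM in the control pools. Close by in the table, si:dkey-9c18.3 was a member with 2 counts in qKO, at 0.0130 ± 0.0210 CPM in qKO and 0.928 ± 0.453 CPM in control. Of the 3 tested relatives of adgre9 by name, one adgre5b.3 entry, 150 entries away, fell by 0.49 (edgeR adjusted p = 0.0498). That call was lost without any of qKO pools 1, 3, 4 and 5 or control pools 2 to 5. The other adgre5b.3 entry and adgre5b.2 did not pass. The adgre genes within 10 entries of adgre9 did not pass the filter on low counts, so they were not tested. Mean CPM in qKO and control was 0.0157 and 0.202 for adgre10, 0.0276 and 0.182 for adgre19, and 0.0654 and 0.273 for adgre15. Means were also lower in qKO for adgre6, adgre16, adgre17 and adgre18, but higher in qKO for adgre7 and adgre8. An MFAP4 entry (mfap4.10 in the reference), of a family of fibrinogen-like proteins of the extracellular matrix, averaged 0.0779 ± 0.0781 CPM in qKO and 0.567 ± 0.147 CPM in control. Both entries beside it fell, mfap4.11 by 1.14 (adjusted p = 0.0014) and mfap4.7 by 0.89 (adjusted p = 0.00706), while the 2 MFAP4 entries 11 and 12 places before it both gave a log2 fold change of -0.06.

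The ankyrin repeat gene ankrd31, needed in mouse for meiotic recombination, averaged 0.0881 ± 0.141 CPM in qKO and 0.561 ± 0.132 CPM in control. qKO pool 2, at 0.339 CPM, held 77.0% of its summed qKO level. Its neighbour hmgcra, which encodes the rate-limiting enzyme of cholesterol synthesis, averaged 38.0 ± 7.13 CPM in qKO and 65.1 ± 17.0 CPM in control and fell by 0.87 (SE 0.22, edgeR adjusted p = 0.0132). In pools 1 and 2 alone the hmgcra fold change was -0.20 and was not called.

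Genes listed in the table under clone-derived names, some of which have other names in the reference, made up 22 of the 35 members nearly absent in qKO and 5 of the 9 nearly absent in control. Together these were 61.4% of members. The share was 20.8% of the 21700 genes with a mean of at least 0.5 CPM in a genotype, and 31.6% of all genes in the table. Neither set was matched to the members in CPM, and the shares are a description that was not tested. Among the clone-named members CR457444.2 had 0, 0.288, 0.0333, 0 and 0 CPM in the qKO pools and 3.86, 4.93, 0.850, 3.83 and 3.08 CPM in the control pools. Pool 2 held 89.6% of its qKO level. Its neighbour CR457444.5 averaged 0.0782 ± 0.0900 CPM in qKO and 0.482 ± 0.281 CPM in control and fell by 2.80 (SE 0.72, edgeR adjusted p = 0.0134), or by 4.10 without qKO pool 2. AL928650.3 had 1 count in all qKO pools and 1.43, 3.05, 2.81, 3.27 and 1.39 CPM in the control pools, and it lay next to AL928650.4, at 0.0663 ± 0.109 CPM in qKO and 1.22 ± 0.739 CPM in control. The entries flanking this pair were also near 0 in qKO but too low in control for the rule. AL928650.2 averaged 0.0034 CPM in qKO and 0.299 CPM in control. On the other side, si:ch211-160d14.15 had no count in qKO and averaged 0.164 CPM in control. Neither passed the filter on low counts, so neither was tested. The next entries outward were tested and were not lower in qKO. SLC29A4, 2 entries from AL928650.3, rose by 0.43 (SE 0.11, edgeR adjusted p = 0.0109). Before the pair, ptcd1, 2 entries from AL928650.4, gave a log2 fold change of 0.302 and did not pass (adjusted p = 0.0511).

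The gene zgc:171470 also had 1 count in qKO, against 1.06, 2.15, 2.73, 1.85 and 2.43 CPM in the control pools, a pooled level 807-fold higher in control with a counting interval of 145-fold to 31890-fold. Next to it tspan34, a tetraspanin, averaged 0.966 ± 0.509 CPM in qKO and 3.00 ± 0.305 CPM in control and fell by 1.72 (SE 0.35, edgeR adjusted p = 0.00398). The gene si:dkey-31i7.2 had all 8 of its qKO counts in pool 5, at 0.0418 CPM, and 1.25, 2.29, 2.36, 1.98 and 1.71 CPM in the control pools. Another 2 members were adjacent, si:dkey-51d8.9 at 0.0308 ± 0.0380 CPM in qKO and 0.813 ± 0.217 CPM in control, and BX649516.4 at 0.0533 ± 0.0566 CPM in qKO and 0.770 ± 0.190 CPM in control. On their flanks si:dkey-51d8.3 had 0.366 to 0.661 CPM in qKO and 3.61 to 4.52 CPM in control (-3.21, SE 0.19, adjusted p = 6.31e-07), and the zinc finger gene znf1021 fell by 0.87 (SE 0.13, adjusted p = 0.000713).

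The remaining members nearly absent in qKO were BX571954.2, si:dkey-146c18.2, zgc:153846, BX000534.1, si:ch211-225b7.5, CU682640.1, si:dkey-93m18.6, si:dkey-21e2.10 and CR762420.1, all named here after their values were seen. Their means ran from 0.0098 CPM for zgc:153846 to 0.0825 CPM for si:dkey-21e2.10 in qKO and from 0.536 CPM for CU682640.1 to 1.40 CPM for si:dkey-93m18.6 in control. The least even was si:dkey-146c18.2, with 0.249, 2.12, 0.720, 1.22 and 0.308 CPM in the control pools, a coefficient of variation of 83.7%. Called neighbours went both ways. Beside si:dkey-93m18.6, si:dkey-93m18.3 rose by 1.26 (edgeR adjusted p = 0.0157). Falls were by 1.40 for ifit11 beside BX000534.1 (adjusted p = 0.0178) and by 1.09 for FP102158.1 beside CU682640.1 (adjusted p = 0.017). Near zgc:153846, crygm2c fell by 0.97 (adjusted p = 0.013) and crygmxl1 rose by 0.66 (adjusted p = 0.0173). Genes that share a clone with si:dkey-21e2.10 were among the more counted neighbours, and si:dkey-21e2.15 had 10.8, 9.09, 6.97, 3.90 and 1.66 CPM in qKO against 23.5, 24.3, 27.7, 27.3 and 26.2 CPM in control (-2.09, SE 0.44, adjusted p = 0.00767). Both genotypes were well separated for si:dkey-21e2.15, but the qKO pools differed among themselves far more than the control pools.

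Of the 9 genes nearly absent in control, an RNA-binding protein gene led in CPM. RNPS1, whose human protein joins the exon junction complex on spliced mRNA, had 4.15, 5.22, 6.84, 3.71 and 4.43 CPM in the qKO pools and 0, 0.139, 0.0739, 0.144 and 0.109 CPM in the control pools. The pooled level was 46.9-fold higher in qKO (interval 32.2-fold to 71.1-fold). Another entry far away in the table, written rnps1, had 5.02, 4.56, 2.78, 8.58 and 6.35 CPM in qKO and 6.59 to 8.51 CPM in control (edgeR log2 fold change -0.53, SE 0.23, adjusted p = 0.104). The qKO pool highest for RNPS1, pool 3, was the lowest for rnps1, and the qKO pool lowest for RNPS1, pool 4, was the highest for rnps1. Summed, the 2 entries gave 10.3 ± 1.24 CPM in qKO and 7.36 ± 0.822 CPM in control. Of the neighbours of RNPS1, psmd2, a subunit of the proteasome, rose by 0.60 (SE 0.08, adjusted p = 0.000305).

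The gene si:ch73-97h19.2 carries the reference name KYAT3, a kynurenine aminotransferase that makes kynurenic acid from a breakdown product of tryptophan. It had 3.27, 2.53, 4.07, 3.95 and 3.86 CPM in the qKO pools and 0.0623, 0, 0.0185, 0.0206 and 0.0272 CPM in the control pools, and it was 157-fold higher in qKO (interval 71.9-fold to 426-fold). The entry next to it, kyat3, averaged 36.0 ± 5.98 CPM in qKO and 22.7 ± 1.2 CPM in control and rose by 0.59 (SE 0.13, edgeR adjusted p = 0.00503). Every qKO pool of kyat3 exceeded every control pool, and pools did not overlap for 20.4% of all tested genes. The levels of si:ch73-97h19.2 itself were used by the rule.

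FO904903.1 had 2.63, 2.73, 2.30, 2.51 and 1.51 CPM in the qKO pools and no count in control, which made it at least 171-fold higher in qKO against a floor of 3 counts over the 5 control pools. It lay next to mhc1uma, a class I antigen-presenting gene that the rule left out by name, which had 1.36, 1.76, 1.53, 2.41 and 1.38 CPM in the qKO pools and no count in control. The kdm4b gene, 2 entries on, did not pass the test.

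The chemokine gene ccl39.3, one of the small secreted proteins that attract leukocytes, had 0.917, 1.2, 1.12, 1.01 and 1.22 CPM in the qKO pools and 1 count in control. It was the most even of the 9, with a coefficient of variation of 11.9% over the qKO pools. Its relative ccl39.2, 2 entries away, went the other way, with 0.115 ± 0.102 CPM in qKO and 0.417 ± 0.140 CPM in control, a fall of 2.12 (SE 0.54, edgeR adjusted p = 0.0127) and of 2.76 without qKO pool 2. Another immune gene, si:dkeyp-75b4.9, is ifi44b in the reference, a relative of the interferon-induced gene IFI44. It had 0.478, 0.729, 0.534, 0.337 and 0.476 CPM in the qKO pools and 0.0623, 0.0694, 0.0923, 0 and 0 CPM in the control pools.

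The gene beside si:dkeyp-75b4.9 also went the opposite way. This was si:dkeyp-75b4.10, eslec in the reference, with 0.199, 0.305, 0.0167, 0.0482 and 0.0523 CPM in qKO against 1.87, 3.12, 1.87, 2.59 and 2.02 CPM in control. It fell by 4.41 (SE 0.49, edgeR adjusted p = 8.88e-05), and by 5.31 without qKO pool 2. So ifi44b was nearly absent in control, while eslec in the next entry was low in qKO.

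Of the 2 zinc finger members, znf1177 had 0.279, 0.441, 1.83, 1.98 and 0.601 CPM in the qKO pools and 2 counts in control, with pools 3 and 4 well above the rest. The other, znf1001 (ENSDARG00000102401), averaged 0.905 ± 0.293 CPM in qKO and 0.0992 ± 0.0797 CPM in control. A second znf1001 entry 2 places on averaged 0.479 ± 0.249 CPM in qKO and 0.160 ± 0.0932 CPM in control and rose by 1.64 (SE 0.43, edgeR adjusted p = 0.0137; adjusted p = 0.058 without qKO pool 5). The third znf1001 entry, 1 place further, fell by 0.77 (SE 0.16, adjusted p = 0.0043), at 3.26 ± 0.852 CPM in qKO and 5.23 ± 0.989 CPM in control. Before the member, zgc:173517 rose by 1.61 (SE 0.20, adjusted p = 0.000181), so the 4 entries named here did not share a direction.

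The last 2 members were clone-named. CU570782.1 averaged 0.833 ± 0.255 CPM in qKO and 0.0422 ± 0.0441 CPM in control, and the metalloprotease gene adamts18, 2 entries on, rose by 0.64 (SE 0.12, edgeR adjusted p = 0.00275), or by 0.25 with no call in pools 1 and 2 alone. For si:ch211-51i16.3 the mean was 0.649 ± 0.286 CPM in qKO and 0.0834 ± 0.104 CPM in control. Its neighbour CABZ01019904.1 had 0.826 to 3.02 CPM in qKO and 0.0694 to 0.499 CPM in control and rose by 2.53 (SE 0.46, adjusted p = 0.00238), while si:ch211-51i16.1 on the other side gave -0.12 (SE 0.28, adjusted p = 0.789).

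Across all members, the counting of neighbours used values that the rule did not. Within 2 entries of a member, 38 of 96 tested genes were called, 39.6%, beside 25.8% of all tested genes, of which 15 were higher and 23 lower in qKO. Of these 38, 29 moved in the direction of their member and 9 in the opposite direction. One of the 29, mhc1uma, had levels that met the rule and was left out of the members by name only. Near members absent in qKO, 21 of 28 called neighbours were lower in qKO, and near members absent in control, 8 of 10 were higher. With pools 1 and 2 alone 24 of 90 tested neighbours were called, beside 21.4% of all tested genes, and with pools 3 to 5 alone 51 of 96, beside 41.3%.

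Names such as si:dkey-21e2.15 give the stretch of cloned DNA on which a gene was found, here si:dkey-21e2. Of 18 tested genes that share a clone name with a member, 11 were called, 61.1%, with 1 higher and 10 lower in qKO, and a median log2 fold change of -1.51 beside 0.03 over all tested genes. Of these 11, 9 moved in the direction of their member and 2, si:dkeyp-75b4.10 and si:dkey-93m18.3, in the opposite direction. The si:dkey-21e2 clone gave 4 of the 11, and si:dkey-51d8.1, si:dkey-51d8.3 and si:dkey-51d8.6 were also among them, so the 11 are not independent of each other. A further tested entry named si:dkey-51d8.1, si:dkey-165b20.1 in the reference, lay 596 entries from its member and was not called. A shared clone name thus did not always mean a near neighbour. With pools 1 and 2 alone 9 of 15 were called, and with pools 3 to 5 alone 13 of 18. In the order of the RefSeq gene table of GRCz12tu, where 22 members were matched, 61 of 181 tested genes among the nearest 5 on each side were called, 33.7%, beside 25.8% of all tested genes, with 23 higher and 38 lower. Of these 61, 33 moved in the direction of their member and 28 in the opposite direction, and near members absent in control 1 moved in that direction and 6 in the opposite one. With pools 1 and 2 alone 50 of the 181 were called and with pools 3 to 5 alone 92, beside the 21.4% and 41.3% of all tested genes given above.

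The share called was highest right beside a member. Of 43 tested genes 1 entry from a member, 23 were called, 53.5%, and 16 of them, 37.2% of those tested, had a log2 fold change of 1 or more in size. At 2 entries 15 of 53 were called, 28.3%, and 11.3% changed by that much. At 3 to 5 entries the shares were 32.4% and 9.35%, at 6 to 10 entries 33.1% and 10.5%, at 11 to 20 entries 28.3% and 5.87%, and beyond that 25.4% and 4.56%. These distances were chosen after the data were seen and the difference between shares was not tested.

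**Figure D4:**
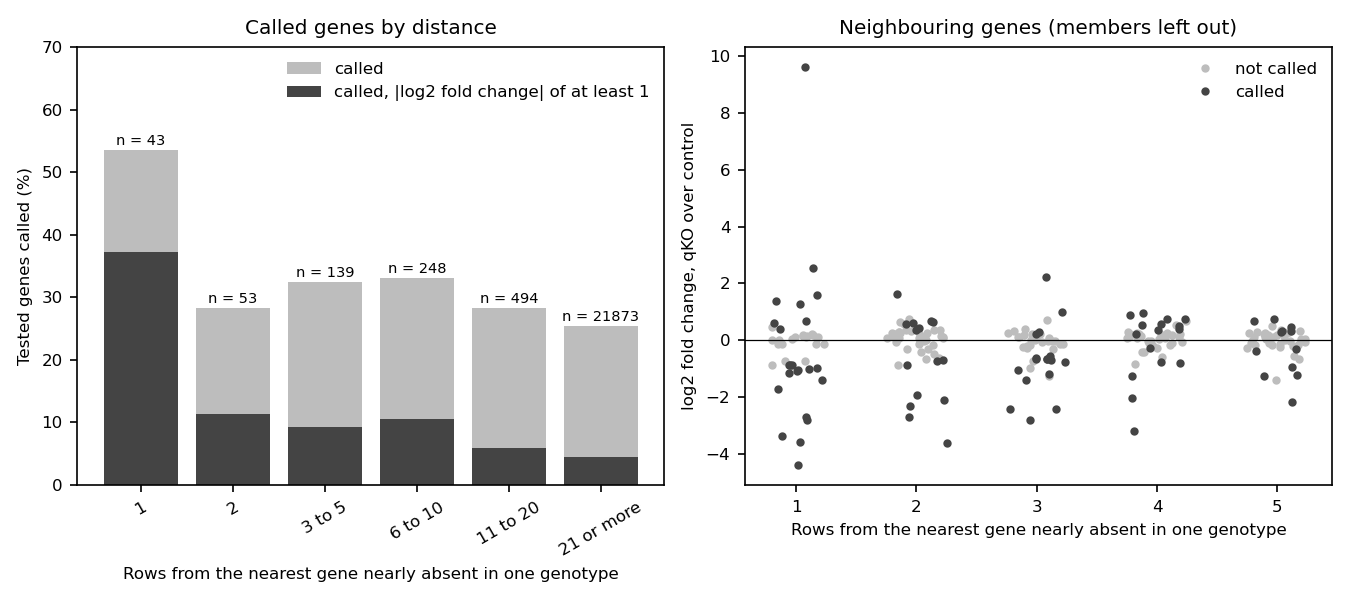
Left, bars give the percentage of tested genes that were called at each distance in rows (entries) from the nearest member, with the dark part for log2 fold changes of 1 or more in size; right, points give the log2 fold change, qKO over control, of each tested gene up to 5 rows away, members left out. At 1 row 53.5% were called, against 25.4% at 21 rows or more, and the highest point is mhc1uma, whose control pools had no count, so that its fitted value depends on the prior count.

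Relatives by name gave a mixed picture. Of 34 tested genes that share the letters of a member's symbol, in families of at most 30 genes, 15 were called, 44.1%, with 2 higher and 13 lower in qKO, beside 25.8% of all tested genes, with 13.4% higher and 12.5% lower. The 13 comprised 7 cerebellins, 3 spink genes, 1 clca1 entry, 1 adgre5b.3 entry and 1 MFAP4 entry, and the 2 that rose were mfap1 and mfap2. These 2 share only the letters mfap with the MFAP4 member, which does not make them its copies, and no tested MFAP4 entry rose. With pools 1 and 2 alone 7 of these relatives were called, beside 21.4% of all tested genes. With pools 3 to 5 alone 20 were called, beside 41.3%. No relative of smyhc2, upp2 or RNPS1 passed. The tallies of neighbouring entries, shared clones, RefSeq neighbours and relatives overlap and are not independent of each other. For example, spink2.2 was called both as a neighbouring entry and as a relative. CR457444.5 was called both as a neighbouring entry and by its clone, and si:dkey-51d8.3 both by its clone and as a RefSeq neighbour. Among larger families, none of the 18 tested chemokine genes of the ccl group that were not members rose and 8 fell (median log2 fold change -0.72). Of 26 glucuronosyltransferases 3 rose and 6 fell, and of 292 zinc finger genes of the znf list 33 rose and 16 fell, beside the same 13.4% and 12.5% of all tested genes. No member's deposited name fell in the lists for tripartite motif genes, protocadherins, odorant receptors, cytochrome P450 genes or immunoglobulin segments.

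The median coefficient of variation over control pools was 32.5% for the 35 genes nearly absent in qKO and 16.3% for 11114 other genes with means between those of the lowest and highest member, which were not matched to the members in CPM. Over qKO pools it was 27.8% for the 9 nearly absent in control and 21.3% for 5629 other genes. Some members followed the split of the pools, in control a smaller share than among all genes that met the same minimum. Pools 1 and 2 were both above pools 3 to 5 in control for 7 of 35 members, 20.0%, beside 37.4% of all such genes. They were both below for 2, 5.71%, beside 16.3%. In qKO they were both above for 2 of 9, 22.2%, beside 12%, and both below for 2, 22.2%, beside 34.7%. The differences between these shares were not tested.

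What was left of the absent genes was uneven. Summed over the 35 genes, the qKO pools 1 to 5 had 1.16, 3.05, 1.02, 0.916 and 0.936 CPM, from 29, 180, 61, 19 and 179 counts. Pool 2 was the highest qKO pool for 14 of the 35, and for 10 of them it held at least 50% of the summed qKO level. The 9 genes nearly absent in control had 0.187, 0.521, 0.443, 0.412 and 0.417 CPM in control pools 1 to 5, from 3, 15, 24, 20 and 46 counts. qKO pool 2 was also the qKO pool with the highest prss1, at 1136 CPM against 272 to 674 CPM in the other qKO pools. The liver marker fabp10a was likewise highest there, at 119 CPM against 52.7 to 96.0 CPM in the other qKO pools. The neutrophil marker mpx was instead lowest there, at 10.2 CPM against 13.5 to 18.8 CPM. The part of these marker levels in the residue of pool 2 was not tested.

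**Figure D5:**
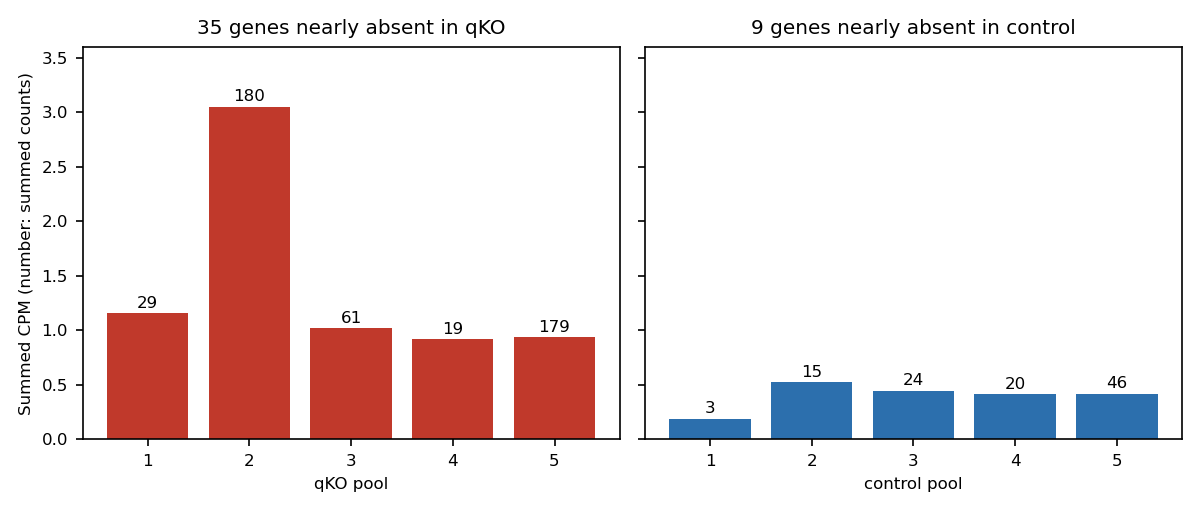
Summed CPM left in each pool of the genotype in which the genes were nearly absent, for the 35 genes in qKO (left) and the 9 in control (right), with the summed counts above each bar. qKO pool 2 stands out at 3.05 CPM, while the other qKO pools lie between 0.916 and 1.16 CPM.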

How the data were processed

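Per the labels' protocols, libraries were made from 200 ng of column-purified RNA with Illumina's TruSeq Stranded Total RNA kit. The authors deposited raw counts per Ensembl gene for 32520 genes. Per the submitters' processing notes, FastQC 0.11.9, Trim Galore 0.6.6, featureCounts, Subread 2.0.0, MultiQC 1.9 and the build GRCz11 were used; their settings, the aligner, the annotation release and the use of strand are not given in the sources used here. CPM was computed from column totals, and the mean ± SD covers 5 pools. All 10 larval columns matched 1 pool each by name.

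Counts were fitted in R 4.3.3 with edgeR 4.0.16 (filterByExpr, trimmed mean of M values scaling, robust quasi-likelihood test, Benjamini-Hochberg adjustment over 22894 genes, no covariates) and called at an adjusted p under 0.05. DESeq2 1.42.0, other scalings and filters, pool sets, a replicate block and each pool left out were alternatives. Labels call the pools biological replicates, so p-values measure the spread between pools. Between pools of the same genotype, the chi-square of counts per degree of freedom ran from 5.73 to 138.5. Every such pair thus differed by more than sampling noise, and no p-value was computed.

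The members, lists and alternatives were chosen with earlier results of these data known. Genes named were the targeted genes, the 12 members of highest mean CPM in each direction, members in runs or with true symbols, and per member at most 3 called neighbours or relatives with the lowest p, otherwise the nearest. Runs are members within 5 entries. A gene name reference matched 34 members, and the RefSeq table of GRCz12tu matched 22 by symbol; because its build differs, only its order was used, and no coordinates are given. Of adjacent entries matched to it, 99.37% lay on one chromosome. Intervals are 95% exact Poisson intervals and, like the floor of 3 counts over a group, cover counting error only. No sequences are shown.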

Additional observations from a re-analysis of the deposited data

Results flagged for a closer look

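The spread of the pools was checked for 196 gene and group combinations, and 6, or 3.06%, held a pool far from its group; chance flags about 1 in 20 such groups. Among members, BX649516.4 had 0.436 CPM in control pool 1, against 0.797 to 0.886 CPM in the other control pools. The other 5 were neighbours or relatives. The clca1 entry ENSDARG00000016290 had 2.001 CPM in qKO pool 2, against 0.120 to 0.350 CPM in the other qKO pools. Control pool 1 was far from the other control pools for mycbpap at 2.241 CPM against 1.49 to 1.67 CPM, for crygm7 at 0.374 CPM against 0.815 to 0.989 CPM, and for si:dkey-21e2.13 at 7.969 CPM against 11.6 to 13.0 CPM. Control pool 4 had 1.297 CPM of crygm2c, against 0.659 to 0.831 CPM in the other control pools.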

How the results depend on the processing

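The count of members depends on the thresholds. Genes nearly absent in qKO numbered 23 with an absent mean under 0.05 CPM, 64 with one under 0.2 CPM, 17 with a level of at least 1 CPM in the other genotype and 53 with pools 3 to 5 only; genes nearly absent in control numbered 20 under 0.2 CPM, 5 at 1 CPM and 20 with pools 1 and 2 only. With each pool left out in turn the counts ran from 32 to 41 and from 6 to 11. In those runs 10 to 13 same-clone genes, 51 to 69 RefSeq neighbours, 32 to 44 neighbouring entries, 11 to 15 relatives and 4309 to 6363 genes in all were called. Same-clone genes called numbered 6 when tested genes had to average 1 CPM and 4 with the pool sets summed. RefSeq neighbours called numbered 92 with pools 3 to 5 only, 10 with sets summed, 37 with 3 genes and 111 with 10 genes on each side. Neighbouring entries called numbered 24 with pools 1 and 2 only, 12 with sets summed and 83 with 5 entries on each side. Relatives called numbered 7 both with pools 1 and 2 only and with sets summed, and genes called 9551 with pools 3 to 5 only and 700 with sets summed. Summing the sets leaves 2 samples per genotype, and wider or narrower windows hold more or fewer genes; the cause of the other shifts was not tested.

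The direction of spink2.1 was reversed with pools 1 and 2 only, at 0.09 (0.0896). Of the other settings of single neighbours, relatives and targeted genes, 1568 kept direction and call and 208 kept direction only. With the pool sets summed 19 kept both and 71 direction only, and with pools 1 and 2 only 52 kept both and 31 direction only. Scaling by library totals alone called 4566 of 6816 genes as higher in qKO, against 3058 of 5910. Pools with the same replicate number did not deviate together (correlations of -0.146 to 0), so the numbers do not pair them; a replicate block gave 4543 genes called in all, 10 same-clone, 58 RefSeq, 34 neighbouring entries and 12 relatives. Depth also limits the members: 0.1 CPM is 2.08 counts in the smallest qKO library and 1.61 in the smallest control library.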
